A study of Rattus norvegicus with 40 samples.

Results

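The fatty acid desaturases and elongases of rat liver were followed over the doses of GW7647, a synthetic agonist of the nuclear receptor PPAR-alpha. They were taken as every probe set that the platform annotation assigns to Scd, Scd2, Fads1, Fads2, Elovl1, Elovl2, Elovl5 or Elovl6. This gave 12 probe sets of the 31139 on the array, and 8 genes of the 13438 tested, with 4 probe sets for Scd2, 2 for Elovl6 and 1 for each other gene. The livers came from 40 adult male Sprague Dawley SD:CD rats in 4 groups of 10, which were gavaged daily over 4 days with vehicle alone or with 0.1, 1 or 10 mg/kg GW7647. Each liver was taken 24 h after the last dose, and its total RNA went onto 1 Affymetrix array. The RNA is that of whole liver with all its cell types, and the composition of the vehicle is not given in the sources used here. Values are log2 expression on the scale the authors deposited unless quantile normalization is named, and "rose" or "fell" is written of a gene only if it passed the test on the deposited values and again, in the same direction, after quantile normalization.

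These enzymes sit in the endoplasmic reticulum and set the chain length and the degree of unsaturation of fatty acids. Stearoyl-CoA desaturases, Scd and Scd2 in the rat, turn stearic and palmitic acid into oleic and palmitoleic acid. Fads2 makes the entry step and Fads1 the later step of the path from linoleic and alpha-linolenic acid to arachidonic and eicosapentaenoic acid. Elovl proteins catalyse the condensing step that starts each round of chain extension: Elovl6 acts on palmitic acid, Elovl1 on saturated and monounsaturated very long chains, and Elovl5 and Elovl2 on polyunsaturated chains. In liver several of these genes are known as targets of SREBP-1c or the LXRs and, in rodents, of PPAR-alpha.

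The stretches upstream of 4 of the genes are shown because Fads1 and Fads2 moved most closely together, Scd2 moved most from the middle to the top dose, and Elovl5 was the member that did not rise. Sequences are from RefSeq on build GRCr8, 5′ to 3′ on the strand of the gene, without any base inside the annotated gene. Capitals mark CCAAT, the core letters bound by NF-Y, or its reverse complement ATTGG. The stretches are chr1:216252442-216252604 on the plus strand for Fads1, chr1:216172191-216172283 on the minus strand for Fads2, chr1:253118127-253118376 on the plus strand for Scd2 and chr8:87670914-87671163 on the plus strand for Elovl5.
Fads1: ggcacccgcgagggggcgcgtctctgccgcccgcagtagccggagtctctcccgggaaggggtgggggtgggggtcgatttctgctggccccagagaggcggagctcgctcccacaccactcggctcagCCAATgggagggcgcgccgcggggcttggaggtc
Fads2: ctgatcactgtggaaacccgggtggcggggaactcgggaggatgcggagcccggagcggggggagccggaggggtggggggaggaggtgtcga
Scd2: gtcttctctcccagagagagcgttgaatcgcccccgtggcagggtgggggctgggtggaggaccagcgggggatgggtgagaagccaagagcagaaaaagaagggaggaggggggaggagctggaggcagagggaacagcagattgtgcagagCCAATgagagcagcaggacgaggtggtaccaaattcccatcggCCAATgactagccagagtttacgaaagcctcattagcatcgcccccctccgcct
Elovl5: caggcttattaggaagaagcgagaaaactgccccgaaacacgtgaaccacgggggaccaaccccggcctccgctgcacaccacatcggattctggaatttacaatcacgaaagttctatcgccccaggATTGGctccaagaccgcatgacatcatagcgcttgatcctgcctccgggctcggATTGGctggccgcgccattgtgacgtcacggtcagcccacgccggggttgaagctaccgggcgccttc
Windows of 250 bases before the start were found for 7 of the 8 genes, and Elovl6 is named only. The windows of Scd and Elovl1 lie wholly, and those of Fads1 and Fads2 and 1 of the 2 of Elovl2 partly, inside the annotated gene. The searches ran on both strands of these windows and of all 33469 windows in the same table. No member's window held AGGNCANAGGNCA, the direct repeat that PPAR and RXR bind (0.368% of all windows), AGGNCANNNNAGGNCA, the spacing LXR and RXR bind (0.152%), or TCACNCCAC, a sterol regulatory element (0.974%). Positions count back from the start at which each window of 250 bases ends. For Fads1 that window ends at chr1:216252691, inside the annotated gene, so its positions do not count from the end of the printed stretch. CCAAT, which 34% of all windows hold, occurred at -97 to -93 and -54 to -50 from the Scd2 start, at -121 to -117 from the Fads1 start, and in the reverse direction at -122 to -118 and -68 to -64 from the Elovl5 start. The E-box CACGTG and the Sp1 letters GGGCGG were also searched and are not in capitals. Among the members CACGTG (5.59% of all windows) occurred only at -212 to -207 from the Elovl5 start. GGGCGG (30.5% of all windows) occurred in windows of Fads1, Fads2 and Elovl2. A missing match says only that these letters are not in this window, and a match is not a measured binding site. Fads2 and Fads1 lie 80414 bases apart on chromosome 1, and Scd2 and Scd lie 87531 bases apart on the same chromosome with Scd4 between them.

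Several measures of the arrays moved with dose. The array medians averaged 2.47, 2.47, 2.60 and 2.71 from vehicle to the top dose, so counts at the upper doses are given both as deposited and quantile normalized. Poly-A control probe sets averaged 5.57, 5.84, 6.22 and 6.56 in the same order, and at 1 mg/kg they read 5.25 to 5.70 on arrays 1 to 4 but 6.34 to 7.39 on arrays 5 to 10. All 8 measured genes of a PPAR-alpha target list rose at 10 and at 1 mg/kg, where 20.4% and 11.1% of all genes rose. Cyp4a1 was among them, at 12.76 and 12.44 against 9.50 in vehicle rats. At 0.1 mg/kg 2 of the 8 rose, against 0.0819% of all genes. These were Cyp4a1 at 10.40, and Ehhadh at 9.93 against 9.43 in vehicle rats. For the marker counts below, the shares over all genes at 10 mg/kg were 20.4% that rose and 7.69% that fell. Of 6 hepatocyte markers 2 fell at 10 mg/kg, and their summed level was 14.94 to 15.16 at 10 mg/kg and 15.05 to 15.15 in vehicle rats. Of 5 measured macrophage markers 4 fell at 10 mg/kg, with a summed level of 9.38 to 10.40 and 10.21 to 11.07 in vehicle rats, and in bulk RNA fewer cells cannot be told apart from less RNA per cell. Of 5 cholangiocyte markers Epcam and Sox9 rose and Spp1 fell at 10 mg/kg, with a summed level of 6.02 to 7.30 and 5.82 to 6.57 in vehicle rats, and Epcam rose 2.40-fold. Sox9 averaged 1.96 at 10 mg/kg and 1.51 in vehicle rats, below the array median in both groups. Its log2 change was 0.45, and 0.17 after quantile normalization. Kdr fell among 4 endothelial markers, and Col1a1 rose and Des fell among 6 stellate and fibroblast markers. Adipocyte markers, from another tissue rich in desaturases, lay below the array median for 3 of 5 genes at 10 mg/kg, 1 of them (Adipoq, at 2.37 against 1.88 in vehicle rats) rose, and their summed level was 5.83 to 8.22 against 6.20 to 7.30 in vehicle rats. The part of these shifts in the results below was not tested.

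At 10 mg/kg 7 of the 8 genes rose over vehicle, and Elovl5 was the exception. The share of all genes that rose by the same rule was 20.4%, and 56.5% passed upward on the deposited scale taken by itself. None of the 8 fell, where 7.69% of all genes did. The median log2 change of the 8 genes was 1.18 against 0.26 over all genes, and 0.91 against -0.02 after quantile normalization. At 1 mg/kg 5 of 8 rose, namely Scd, Fads1, Fads2, Elovl1 and Elovl6, where the background was 11.1% on both scales and 38.2% on the deposited scale. There the medians were 0.54 for the members and 0.16 for all genes, or 0.34 and -0.01 after quantile normalization. At 0.1 mg/kg 0 of 8 passed with limma in either direction, and 0 had an unadjusted p under 0.05, while 0.0819% of all genes rose, 0.0967% passed in either direction and 4.37% had an unadjusted p under 0.05. The 3 comparisons share the vehicle arrays and are not independent of each other.

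**Figure D1:**
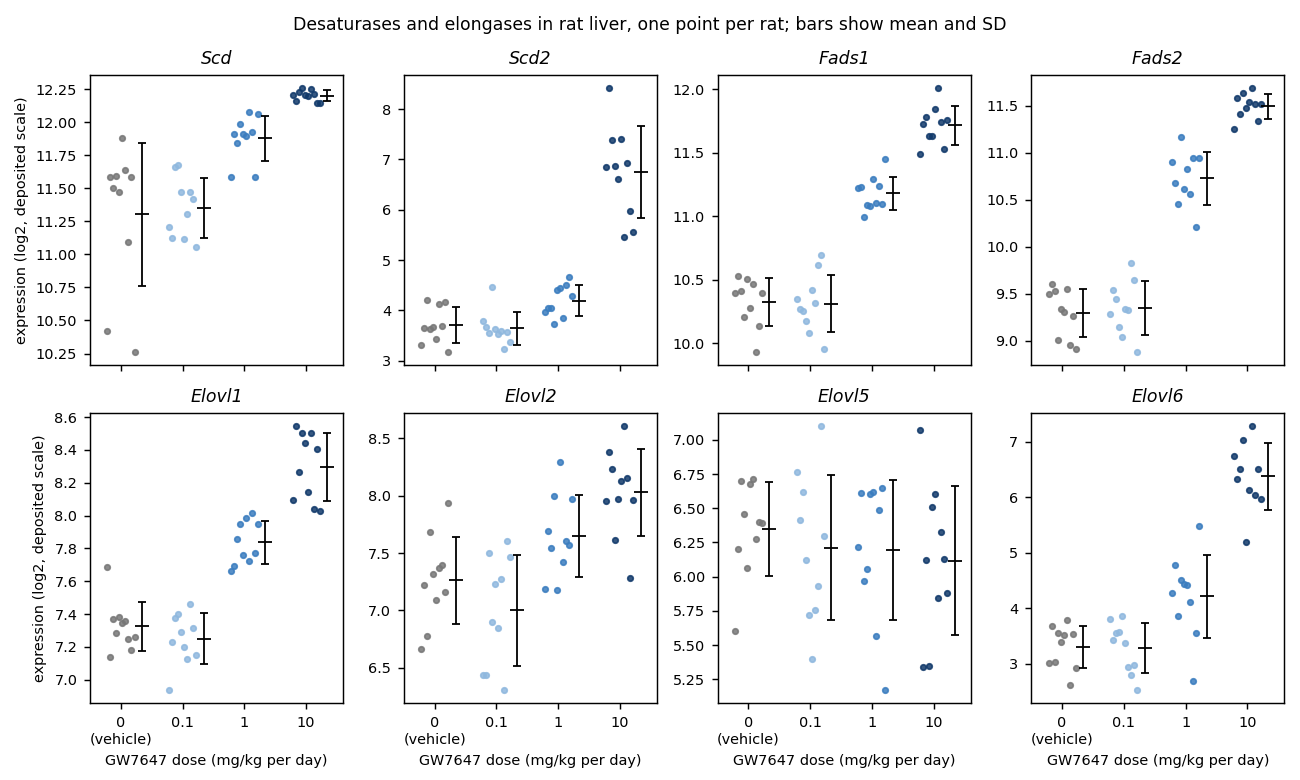
Expression of the 8 genes (log2, deposited scale, brightest probe set) by GW7647 dose, with 1 point per rat and the mean and SD of 10 rats beside each group; each panel has its own axis. At 10 mg/kg all rats lie above all vehicle rats for Scd, Scd2, Fads1, Fads2, Elovl1 and Elovl6, and the groups of Elovl5 overlap at every dose.

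All 10 rats at 10 mg/kg lay above all 10 vehicle rats for 6 genes on the deposited scale, where 13% of all genes did so. After quantile normalization this held for 5 genes, without Elovl1, against 3.63% of all genes. At 1 mg/kg only Fads1 and Fads2 among the members were apart from vehicle in this way, on both scales, against 4.69% of all genes as deposited and 1.3% when quantile normalized. All rats at 10 mg/kg lay above all rats at 1 mg/kg for 5 members as deposited, against 2.46% of all genes. These were Scd, Scd2, Fads1, Fads2 and Elovl1. After quantile normalization this held for 1 member, Scd2, against 0.93% of all genes. The F test over all 4 groups passed for 7 of 8 members on both scales, against 71% and 47.9% of all genes, and Elovl5 had an adjusted p of 0.756 as deposited and 0.0868 when quantile normalized.

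Scd, the main stearoyl-CoA desaturase of liver, rose at both upper doses and became more uniform between rats. Its lowest, median and highest log2 values were 10.26, 11.54 and 11.88 in vehicle rats and 11.06, 11.36 and 11.67 at 0.1 mg/kg. They were 11.59, 11.91 and 12.08 at 1 mg/kg, and 12.14, 12.20 and 12.26 at 10 mg/kg. Vehicle rats 1 and 10 were far below the rest of their group, and on the deposited scale every rat at 10 mg/kg was above every other rat of the study. After quantile normalization all were above the vehicle rats, but 5 of 10 were above all rats at 1 mg/kg. Scd averaged 12.20 ± 0.04 at 10 mg/kg and 11.30 ± 0.54 in vehicle rats (SD, n = 10 each), a 1.86-fold rise (95% interval 1.55 to 2.24, adjusted p = 3.22e-07). The rise at 1 mg/kg was 1.49-fold (1.24 to 1.80, adjusted p = 0.000635), with 7 of 10 rats above all vehicle rats on the deposited scale and 2 of 10 after quantile normalization. After quantile normalization the log2 changes were 0.64 at 10 mg/kg and 0.41 at 1 mg/kg (adjusted p = 0.0213). The rise at 1 mg/kg was not called after quantile normalization without vehicle rat 1 (log2 change 0.32, adjusted p = 0.0521) or without vehicle rat 10 (0.29, 0.0543), with only arrays 1 to 4 of that dose (0.38, 0.174), or after scaling to the hybridisation controls (0.41, 0.0914).

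Scd2, the stearoyl-CoA desaturase known in rodents mainly from brain and lipogenic cells, changed at the top dose. It had lowest, median and highest values of 3.17, 3.65 and 4.20 in vehicle rats and 3.23, 3.58 and 4.47 at 0.1 mg/kg. The 1 mg/kg rats had 3.72, 4.17 and 4.67, and the 10 mg/kg rats 5.46, 6.86 and 8.43. The 10 mg/kg rats were spread widely but did not reach down to any rat of the other groups. The level averaged 6.75 ± 0.91 at 10 mg/kg and 3.70 ± 0.36 in vehicle rats (SD, n = 10 each), an 8.25-fold rise (95% interval 5.98 to 11.4, adjusted p = 2.34e-14), or a log2 change of 2.76 after quantile normalization. The change of 0.49 at 1 mg/kg did not pass (adjusted p = 0.0825, and 0.485 after quantile normalization). On the deposited scale it did pass without rat 2 of the 10 mg/kg group (adjusted p = 0.0403).

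The large Scd2 change was read by 1 of its 4 probe sets. The other 3 had group means of 1.78 to 2.46, at or below the array medians, and GCRMA values there lie close to the floor of the background correction. Their log2 changes at 10 mg/kg were 0.59, 0.33 and 0.38 on the deposited scale, all past the threshold. After quantile normalization they were 0.35 (adjusted p = 0.00114), 0.06 (0.503) and 0.11 (0.238), so that 1 of these 3 also rose. For Scd2 and Elovl6, which were dim in vehicle rats, the fold depends on that correction.

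**Figure D2:**
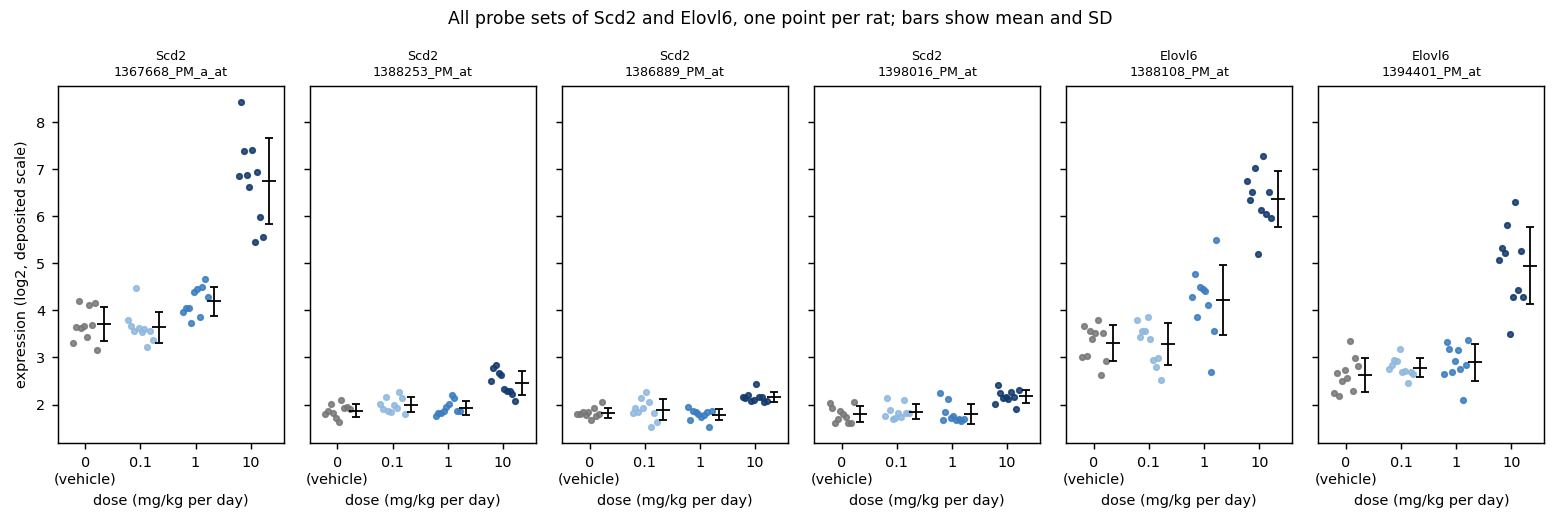
All 4 probe sets of Scd2 and both of Elovl6 (log2, deposited scale) by dose, with 1 point per rat and the mean and SD of 10 rats beside each group, on a shared axis. The Scd2 probe set with the highest mean and both probe sets of Elovl6 are high at 10 mg/kg, and the other 3 probe sets of Scd2 stay between 1.5 and 3.

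Fads1, the desaturase of the later step to arachidonic acid, rose at 1 and again at 10 mg/kg. Its lowest, median and highest values were 9.93, 10.40 and 10.53 in vehicle rats and 9.95, 10.29 and 10.70 at 0.1 mg/kg. The 1 mg/kg rats had 10.995, 11.16 and 11.45, and the 10 mg/kg rats 11.49, 11.74 and 12.01. Vehicle and 0.1 mg/kg rats shared 1 range, and the 2 higher doses formed separate bands above it without overlap on the deposited scale. After quantile normalization the 2 upper bands overlapped, with 8 of 10 rats at 10 mg/kg above all rats at 1 mg/kg. Fads1 averaged 11.72 ± 0.15 at 10 mg/kg and 10.33 ± 0.19 in vehicle rats (SD, n = 10 each). The rise was 2.62-fold at 10 mg/kg (95% interval 2.34 to 2.94, adjusted p = 7.93e-18) and 1.81-fold at 1 mg/kg (1.61 to 2.03, 7.51e-11). After quantile normalization the log2 changes were 1.15 and 0.67 at these doses, and both remained past the threshold.

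Fads2, the desaturase of the entry step, moved with the smallest p of the 8 genes at both upper doses. It read 8.92, 9.32 and 9.60 (lowest, median and highest) in vehicle rats and 8.88, 9.33 and 9.83 at 0.1 mg/kg. The other groups read 10.21, 10.75 and 11.17 at 1 mg/kg, and 11.25, 11.52 and 11.69 at 10 mg/kg. As for Fads1, the groups at 1 and 10 mg/kg overlapped neither the lower groups nor each other on the deposited scale. After quantile normalization these 2 groups overlapped each other, with 9 of 10 rats at 10 mg/kg above all rats at 1 mg/kg. Fads2 averaged 11.50 ± 0.13 at 10 mg/kg and 9.30 ± 0.26 in vehicle rats (SD, n = 10 each), a 4.59-fold rise (95% interval 3.94 to 5.34, adjusted p = 3.32e-20). The rise at 1 mg/kg was 2.70-fold (2.32 to 3.14, adjusted p = 1.42e-13). The log2 changes after quantile normalization were 1.91 at 10 mg/kg and 1.24 at 1 mg/kg.

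Elovl6, which extends palmitic acid to stearic acid, had at 10 mg/kg a fold close to that of Scd2, both from a dim level in vehicle rats. Its lowest, median and highest values were 2.62, 3.45 and 3.79 in vehicle rats and 2.52, 3.40 and 3.86 at 0.1 mg/kg. The 1 mg/kg rats had 2.70, 4.34 and 5.49, and the 10 mg/kg rats 5.19, 6.42 and 7.29. The 1 mg/kg rats spread from the level of the vehicle rats to just past the lowest 10 mg/kg rat, and 8 of 10 were above all vehicle rats. Elovl6 averaged 6.37 ± 0.59 at 10 mg/kg and 3.31 ± 0.38 in vehicle rats (SD, n = 10 each), an 8.38-fold rise (95% interval 5.99 to 11.7, adjusted p = 5.82e-14). The rise at 1 mg/kg was 1.87-fold (1.34 to 2.62, adjusted p = 0.00243), or a log2 change of 0.69 after quantile normalization (adjusted p = 0.0262).

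The 2 probe sets of Elovl6 gave the same call at 10 mg/kg and different ones at 1 mg/kg. The dimmer one averaged 4.95 ± 0.82 at 10 mg/kg and 2.63 ± 0.36 in vehicle rats (SD, n = 10 each), a log2 change of 2.32. Its change at 1 mg/kg was 0.26 (adjusted p = 0.346, and 0.729 after quantile normalization), so the Elovl6 rise at that dose rests on the brighter probe set. On the brighter probe set it was also not called after quantile normalization without vehicle rat 8 (log2 change 0.61, adjusted p = 0.0563), 1 mg/kg rat 2 (0.62, 0.0511) or 1 mg/kg rat 10 (0.55, 0.0687).

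Elovl1, the elongase of saturated and monounsaturated very long chains, rose at both upper doses. Its lowest, median and highest values were 7.14, 7.31 and 7.68 in vehicle rats and 6.94, 7.26 and 7.46 at 0.1 mg/kg. They were 7.66, 7.82 and 8.02 at 1 mg/kg, and 8.03, 8.33 and 8.55 at 10 mg/kg. On the deposited scale 9 of 10 rats at 1 mg/kg and all rats at 10 mg/kg were above all vehicle rats, and 3 and 8 rats were so after quantile normalization. Elovl1 averaged 8.30 ± 0.21 at 10 mg/kg and 7.33 ± 0.15 in vehicle rats (SD, n = 10 each), a 1.96-fold rise (95% interval 1.77 to 2.18, adjusted p = 3.63e-14). At 1 mg/kg the rise was 1.43-fold (1.28 to 1.58, adjusted p = 8.04e-07). After quantile normalization the log2 changes were 0.66 and 0.27 at these doses, and the one at 1 mg/kg (adjusted p = 0.0135) was not called with only arrays 1 to 4 of that dose (0.24, 0.157).

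Elovl2, which extends polyunsaturated chains on the way to docosahexaenoic acid, rose at 10 mg/kg only by a little. Its lowest, median and highest values were 6.66, 7.27 and 7.94 in vehicle rats and 6.30, 7.07 and 7.60 at 0.1 mg/kg. With 1 mg/kg they were 7.17, 7.59 and 8.29, and with 10 mg/kg 7.28, 8.05 and 8.61. Neighbouring groups overlapped throughout, and 8 of 10 rats at 10 mg/kg were above all vehicle rats on the deposited scale but 2 of 10 after quantile normalization. Elovl2 averaged 8.03 ± 0.38 at 10 mg/kg and 7.26 ± 0.38 in vehicle rats (SD, n = 10 each), a 1.70-fold rise (95% interval 1.34 to 2.17, adjusted p = 0.000218). After quantile normalization the log2 change was 0.46 (adjusted p = 0.0245), and the call was lost without vehicle rat 1 (0.39, 0.0536), vehicle rat 3 (0.40, 0.0525) or 10 mg/kg rat 7 (0.39, 0.0579). The change of 0.38 at 1 mg/kg did not pass (adjusted p = 0.0708, and 0.14 with 0.597 after quantile normalization). It passed on the deposited scale without vehicle rat 4 (adjusted p = 0.0498), vehicle rat 10 (0.0314), 1 mg/kg rat 1 (0.0463) or 1 mg/kg rat 5 (0.0456).

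Elovl5, the elongase of polyunsaturated chains that works beside Fads1 and Fads2, did not rise at any dose. It read 5.60, 6.40 and 6.71 (lowest, median and highest) in vehicle rats and 5.40, 6.21 and 7.10 at 0.1 mg/kg. The 1 mg/kg rats had 5.17, 6.35 and 6.65, and the 10 mg/kg rats 5.34, 6.13 and 7.07. The ranges overlapped in all groups. The log2 change at 10 mg/kg was -0.23 (95% interval -0.65 to 0.19, adjusted p = 0.335) on the deposited scale. After quantile normalization it was -0.53 (-0.96 to -0.11, adjusted p = 0.0366), where 24.4% of all genes passed downward, and the call was lost when any 1 of 8 arrays was left out, with adjusted p up to 0.0828. The upper bounds of both intervals lie below the changes measured for each of the other 7 genes at that dose on the same scale.

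**Figure D3:**
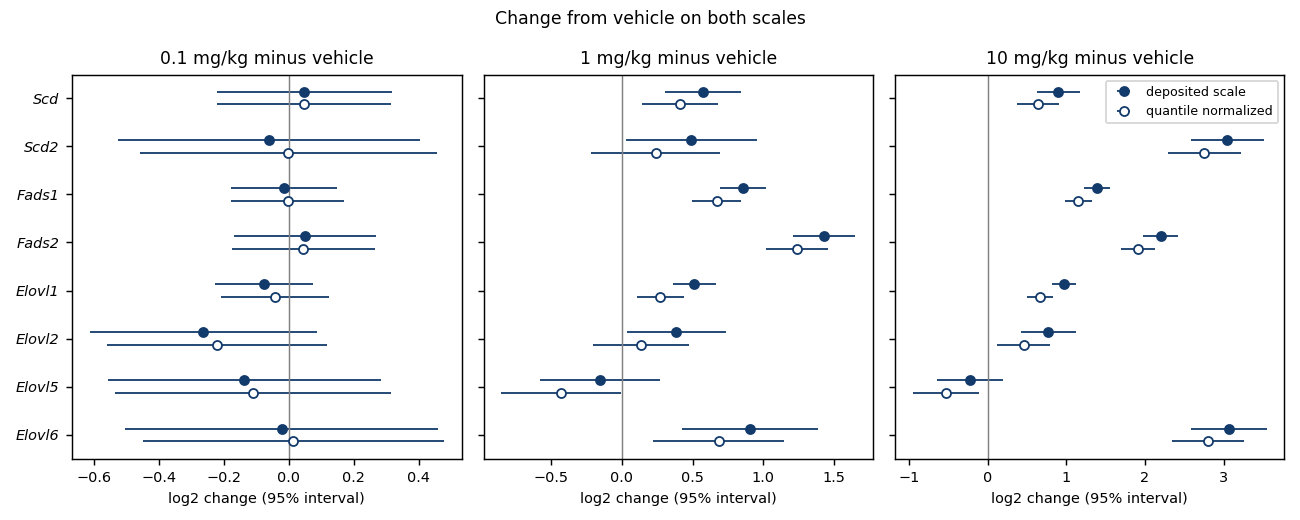
Log2 change from vehicle with its 95% interval for the 8 genes at 0.1, 1 and 10 mg/kg (10 rats against 10), with filled points on the deposited scale and open points after quantile normalization; the horizontal axes differ between panels. At 0.1 mg/kg every interval spans 0, and at 10 mg/kg every interval except those of Elovl5 lies above 0.

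The step in which each gene rose differed between members. From 0.1 to 1 mg/kg 5 of 8 rose on both scales (Scd, Fads1, Fads2, Elovl1 and Elovl6), against 10.5% of all genes, and 7 of 8 against 45.4% as deposited. From 1 to 10 mg/kg 5 of 8 rose on both scales (Scd2, Fads1, Fads2, Elovl1 and Elovl6), against 8.55% of all genes, or 24.2% as deposited. Fads2 gained 0.77 in log2 from 1 to 10 mg/kg and 1.38 from 0.1 to 1 mg/kg, whereas Scd2 gained 2.55 and 0.55, and Elovl6 gained 2.16 and 0.93. The difference of the upper step minus the lower step, a contrast chosen after the values were seen, was 2.003 for Scd2 (adjusted p = 0.000824), 1.23 for Elovl6 (0.038) and -0.61 for Fads2 (0.0226) on the deposited scale. On that scale 4.06% of all genes passed above 0 and 11% below 0. After quantile normalization it was 2.28 for Scd2 (0.000224), 1.44 for Elovl6 (0.0227) and -0.52 for Fads2 (0.0961), with 2.68% and 3.12% of all genes past the threshold above and below 0. Scd2 and Elovl6 were dim in vehicle rats (3.70 and 3.31), so the size of their lower step depends on the background correction. The contrast was not fitted for their other probe sets. As deposited, the dimmer Elovl6 probe set changed by 2.05 in the upper and 0.11 in the lower step. The 3 dimmer Scd2 probe sets changed by 0.53, 0.37 and 0.36 in the upper step, and by -0.06, -0.11 and -0.04 in the lower. In the upper step Scd changed by 0.32 (adjusted p = 0.0618, and 0.231 after quantile normalization), and it passed on the deposited scale without vehicle rat 1 (0.0328) or vehicle rat 10 (0.0229). For the other 5 members the contrast did not pass on either scale. In the lower step Scd lost its call after quantile normalization in 14 of 40 fits that left out 1 array, with adjusted p up to 0.0788, and Elovl6 in 5 of 40, with adjusted p up to 0.0798. Scd2 and Elovl2 passed this step on the deposited scale alone. For Scd2 the adjusted p was 0.0451 as deposited and 0.482 after quantile normalization. On the deposited scale Scd2 lost its call in 13 of 40 such fits, with adjusted p up to 0.0806.

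Within a dose group, rats with more Fads1 also had more Fads2. Over the deviations of all 40 arrays from their group means after quantile normalization, Pearson's r was 0.69 and Spearman's rho 0.72 (permutation p = 1e-05 for both, the smallest the permutations can give, adjusted p = 0.00028 over 28 pairs). In the 4 groups from vehicle to 10 mg/kg, r was 0.64, 0.89, 0.50 and 0.71, and without the 2 arrays farthest in Fads1 it was 0.64. Fads2 and Elovl1 had r = 0.46 and rho = 0.45 (permutation p = 0.00262 and 0.00373, adjusted p = 0.032 and 0.0348), with r of 0.28, 0.60, 0.54 and 0.50 in the groups and 0.38 without the 2 arrays farthest in Fads2. At 0.1 mg/kg rats 8 and 9, whose arrays had the lowest upper quartiles, led their group in both genes after quantile normalization. They read 9.98 and 9.74 for Fads2, and 7.80 and 7.54 for Elovl1. The same rats were highest for Fads1, at 10.79 and 10.83, and r at that dose was not computed without them. Scd and Elovl6 had r = 0.36 and rho = 0.52 (permutation p = 0.00343 and 0.00036, adjusted p = 0.032 and 0.00504), with r of 0.70, 0.34, 0.40 and 0.46 in the groups. Of the 28 pairs these 3 passed for r. The r of Scd with Elovl6 was 0.38 without vehicle rats 1 and 10, which lie farthest in Scd. By r, only the pair of Fads1 and Fads2 passed on the deposited scale, and again without those 2 arrays, while Scd and Elovl6 passed there by rho (0.475, adjusted p = 0.0158) and not by r (0.33, 0.0941).

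**Figure D4:**
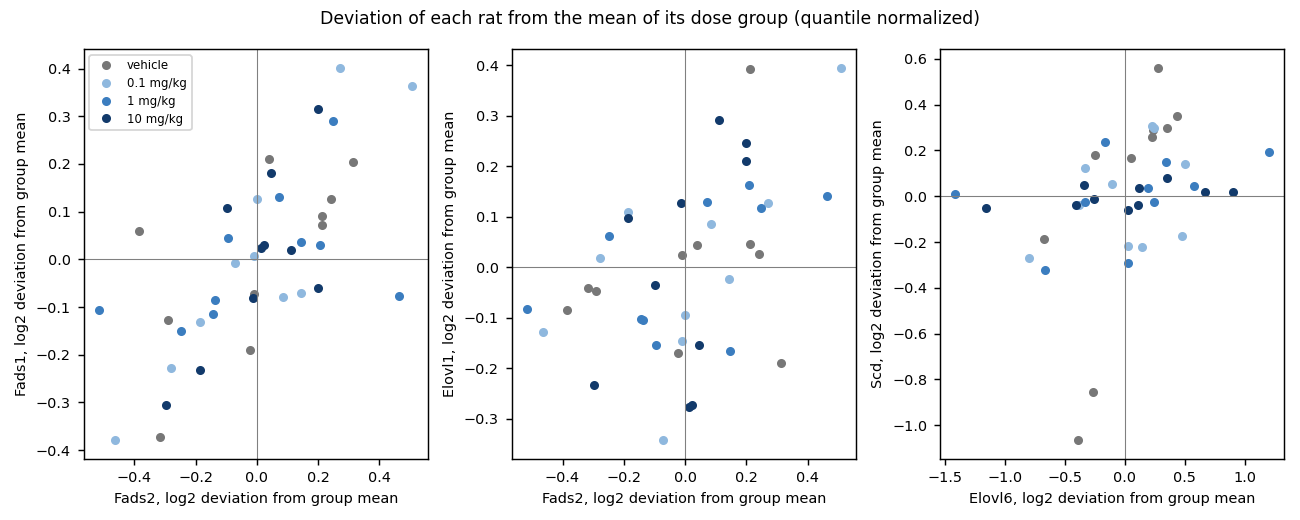
Deviation of each rat from the mean of its dose group (log2, quantile normalized) for 3 pairs of genes, with 1 point per rat, coloured by dose. Fads1 and Fads2 rise together over all 4 groups, and in the panel of Scd and Elovl6 the 2 lowest points are vehicle rats 1 and 10.

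The genes whose levels ran most like each member over the 40 quantile normalized arrays were taken among 5799 genes with a group mean of at least 5, as the 3 with the highest Pearson r. For Fads1 they were Fads2 (r = 0.96), the aconitase and iron regulatory protein Aco1 (0.94) and malic enzyme Me1 (0.94), with within-group r of 0.69, 0.49 and 0.33. For Fads2 they were Aco1 (0.98), Abhd1 (0.97) and Fads1 (0.96), with within-group r of 0.70, 0.58 and 0.69. Scd had Me1 (0.75), Parvb (0.74) and Rpa1 (0.73), and the within-group r with Me1 was 0.55. For Scd2 they were Slc6a20b (0.90), lipoprotein lipase Lpl (0.90) and the fatty acid binding protein Fabp3 (0.88), but within groups r was 0.07, 0.29 and -0.06. For Elovl6 they were Fabp3 (0.91), the carnitine palmitoyltransferase Cpt1b (0.91) and Gtf3c3 (0.90), with within-group r of 0.24, 0.26 and 0.39. Elovl1 had Ptpa (0.92), Abhd16a (0.91) and Acot7 (0.90), and Elovl2 had Ywhae (0.72), Nt5dc1 (0.63) and Aldh3a2 (0.60). Elovl5 had Golph3 (0.88), Nt5c2 (0.84) and C1h6orf120 (0.81), and nearly all of this was within the groups, where r was 0.87, 0.83 and 0.76. These r values describe arrays that share dose groups, and they were selected as the highest of all genes.

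The counts of the lists that follow stand beside shares over all genes of 20.4% that rose and 7.69% that fell at 10 mg/kg, and 11.1% and 3.37% at 1 mg/kg. Of 4 measured partners in the elongation cycle, the ketoacyl reductase Hsd17b12 rose by 0.65 in log2 at 10 mg/kg, to 10.39 against 9.75 in vehicle rats, and the dehydratase Hacd3 fell by 0.19 (-0.50 after quantile normalization). Of 5 measured genes of cytochrome b5 and its reductases, which pass electrons to the desaturases, 0 passed on both scales at 10 or 1 mg/kg. Cyb5b changed by 0.65 at 10 mg/kg (adjusted p = 0.000857, and 0.33 after quantile normalization, 0.0982), and Cyb5a changed by -0.07 (adjusted p = 0.359, and -0.36 after quantile normalization, 2.61e-05). Of 9 genes of fatty acid synthesis and its supply of malonyl-CoA and reducing power, 7 rose at 10 mg/kg and 4 at 1 mg/kg. The 4 were Me1, the citrate carrier Slc25a1, and Mcat and Oxsm, which belong to mitochondrial fatty acid synthesis, a path known mainly for making the precursor of lipoic acid. Malic enzyme Me1 averaged 10.48 at 10 mg/kg and 7.39 in vehicle rats, an 8.53-fold rise, fatty acid synthase Fasn rose 2.76-fold, the acetyl-CoA carboxylase Acaca rose 1.69-fold, and the mitochondrial ketoacyl synthase Oxsm rose 1.77-fold. Acacb, the mitochondrial acetyl-CoA carboxylase, averaged 3.09 at 10 mg/kg and 2.22 in vehicle rats, where it lay below the array median. Me1 also rose at 1 mg/kg, by 1.91 in log2, where Fasn changed by 0.27 (adjusted p = 0.342) and Acaca by 0.13 (0.524). In deviations within the groups, Elovl6 had r = 0.69 with Acaca and 0.62 with Fasn, Scd had 0.56 with Fasn, and Elovl5 had -0.43 with Acaca (n = 40 arrays, given as a description).

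Of 11 regulators of lipid synthesis 5 rose and 1 fell at 10 mg/kg, and 1 rose and 2 fell at 1 mg/kg, where 1 of 11 is no more than the share over all genes. Srebf1, which encodes SREBP-1, averaged 10.29 at 10 mg/kg and 9.31 in vehicle rats, a 1.97-fold rise (adjusted p = 7.53e-07), and it also rose at 1 mg/kg by 0.62 in log2. Insig1, whose protein holds SREBP precursors in the endoplasmic reticulum and which is itself an SREBP target, rose 3.06-fold at 10 mg/kg, and its change of 0.51 at 1 mg/kg did not pass (adjusted p = 0.12). Insig2, the related anchor, fell by 1.01 in log2 at 10 mg/kg, to 8.89 against 9.90 in vehicle rats. Mlxipl, which encodes the carbohydrate-responsive factor ChREBP, rose 1.82-fold at 10 mg/kg.

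**Figure D5:**
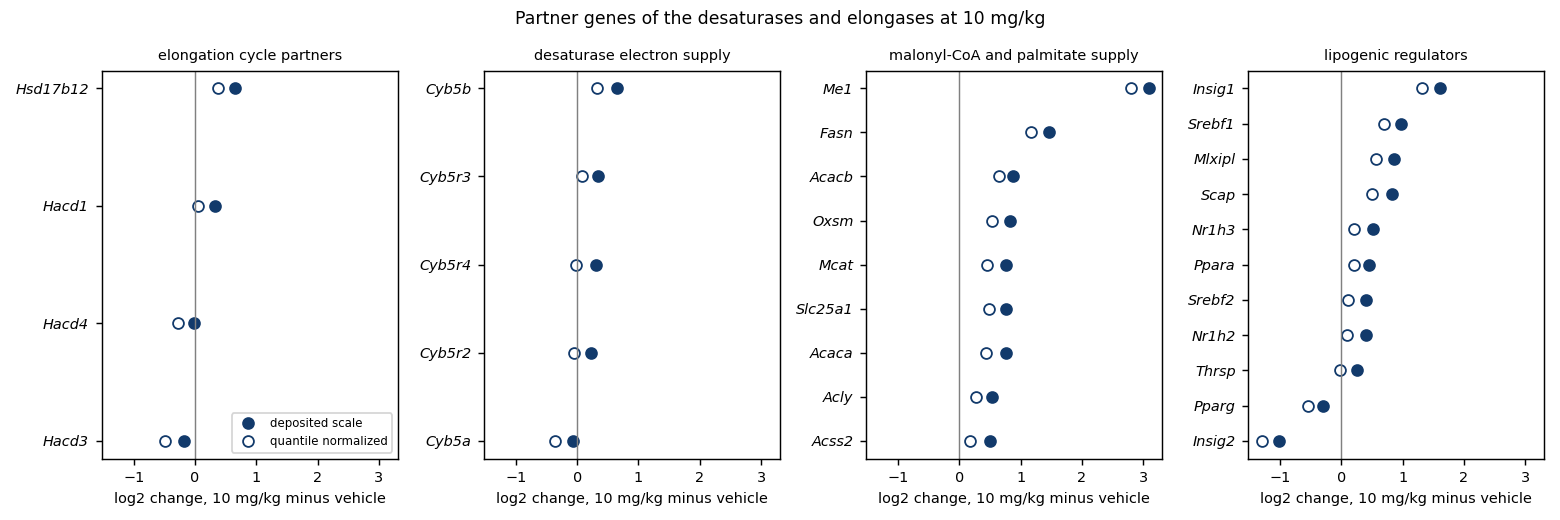
Log2 change at 10 mg/kg minus vehicle (10 rats against 10) for the measured genes of 4 partner lists, filled on the deposited scale and open after quantile normalization. Me1, Fasn and Insig1 lie farthest to the right and Insig2 farthest to the left, and Cyb5a, of the electron supply genes, lies below 0 on both scales.

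Of 4 other family members with a named probe set, 0 rose and 1 fell at 10 mg/kg. Fads3, a close relative of Fads1 and Fads2, fell by 0.39 in log2 at 10 mg/kg, to 2.90 against 3.28 in vehicle rats (adjusted p = 0.00133, and -0.64 after quantile normalization, 6.62e-07). Elovl3, an elongase known from brown fat, averaged 2.11 at 10 mg/kg and 1.72 in vehicle rats, and its change of 0.39 passed on the deposited scale (adjusted p = 8.34e-05) but not after quantile normalization (0.12, adjusted p = 0.243). The ceramide desaturase Degs1, named after its values were seen, rose at 1 mg/kg by 0.42 (0.19 after quantile normalization), and at 10 mg/kg its change of 0.45 passed on the deposited scale alone. Scd3, Scd4, Fads6, Elovl4, Elovl7 and Tecr were not analysed here, since no probe set used here was named for them.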

How the data were processed

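Total RNA of 40 livers was read on 1 Affymetrix array each. The authors deposited log2 expression values per probe set. The submitters' processing notes name GCRMA and Partek, with no version. GCRMA corrects each probe for sequence-dependent background and normalizes between arrays, so dim probe sets lie near a floor. Whether the arrays of all dose groups were normalized together is not stated, and the array medians differed with dose. A gene with several probe sets was read from the one brightest on average. Of 31139 probe sets, 19069 had 1 symbol, 572 several (these named no gene) and 11498 none. Groups were fitted in 1 model with limma 3.58.1 in R 4.3.3 (36 residual degrees of freedom), with two-sided tests and Benjamini-Hochberg adjustment over 13438 genes at 0.05. Quantile normalization of the deposited values gave the other scale. Correlations used 100000 permutations of arrays within groups. Arrays have no read depth, so the number of arrays limits precision. Tests were checked on simulated data. Figures used Python 3.11.15 with matplotlib 3.10.9. By rule the text names all members, up to 4 called genes of each other list and preset genes. The members, lists and rule were chosen with earlier results of these data known. Alternatives and their effect are given in the closing section.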

Additional observations from a re-analysis of the deposited data

Results flagged for a closer look

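Of 32 sets of 10 rats (8 genes in 4 groups), 2 held a rat that stood apart from its group in Dixon's test, and chance alone gives about 1 in 20. The test sets an extreme rat against the next one, so 2 rats that lie far out together can go unflagged. Vehicle rats 1 and 10 were such a pair for Scd, at 10.42 and 10.26, with 11.10 in the next rat. Rat 4 at 0.1 mg/kg had the highest Scd2 value of its group, 4.47, with 3.79 in the next rat. Vehicle rat 1 had the highest Elovl1 value of its group, 7.68, with 7.38 in the next rat.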

How the results depend on the processing

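Against vehicle, the number of the 8 members past the threshold was 0, 5 and 7 at 0.1, 1 and 10 mg/kg, and on the deposited scale 7 and 5 in the lower and upper dose step. No result past the threshold changed direction in any alternative run, while changes near 0, such as Elovl6 at 0.1 mg/kg (-0.02 as deposited and 0.01 when quantile normalized), did change sign. Testing against a 1.2-fold change gave 3 at 1 mg/kg and 4 in the step of 1 over 0.1 mg/kg. Scaling to the hybridisation controls gave 4 in that step. Among alternatives chosen after seeing the data, quantile normalization restricted at 1 mg/kg to arrays 1 to 4 gave 3 at 1 mg/kg and 3 in that step, and quantile normalization without 0.1 mg/kg rats 8 and 9, whose arrays had the lowest upper quartiles, gave 3 in that step. Of 28 Pearson correlations 3 passed, 1 on the deposited scale and 1 without vehicle rats 1 and 10. Leaving out each array in turn, on either scale, gave 0 at 0.1 mg/kg, 4 to 6 at 1 mg/kg, 6 to 8 at 10 mg/kg, 3 to 7 in the lower step, 5 to 6 in the upper step and 7 to 8 in the F test. Replicate numbers were not used as pairs in the main fit. Over the 6 pairs of groups, 1 to 5 of 10 same-numbered pairs correlated above 0.1. The count was 5 between 10 and 1 mg/kg, where the median r was 0.156. Rats with different numbers were not compared in this way, so a shared order of the numbers was not tested. With the replicate number as a block the counts were 0, 5, 7, 7 and 6, with Scd added in the upper step. Dim probe sets and the shift of the deposited scale limit what can be said of small changes.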

Other observations

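Of 8 acyl-CoA synthetases and transporters that activate fatty acids for these enzymes, 4 rose at 10 and at 1 mg/kg, where 20.4% and 11.1% of all genes did. Acsl3, a synthetase of the endoplasmic reticulum and lipid droplets, averaged 7.80 at 10 mg/kg and 5.18 in vehicle rats, a 6.14-fold rise. Acsl4, which prefers arachidonic acid, rose 1.95-fold, Slc27a2, which activates very long chains, rose 1.89-fold and Acsl1 rose 1.38-fold at that dose. Of 7 measured genes of peroxisomal beta-oxidation, which shortens the last intermediate on the way to docosahexaenoic acid, 4 rose and 1 fell at 10 mg/kg, against 20.4% and 7.69% of all genes. Ehhadh rose 8.77-fold, the transporter Abcd3 4.19-fold and Hsd17b4 2.15-fold. Abcd2 averaged 2.02 at 10 mg/kg and 1.58 in vehicle rats, below the array median in both groups. The log2 change of Abcd2 was 0.43, and 0.16 after quantile normalization (adjusted p = 0.0375). Acox2, named after its values were seen, fell by 0.32 in log2.

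The spread of Scd between rats narrowed with dose. From vehicle to the top dose its SD was 0.544, 0.224, 0.171 and 0.0408. The first of these rests on vehicle rats 1 and 10, at 10.42 and 10.26, since the other 8 lay between 11.10 and 11.88. The median SD of the 191 genes with a mean of at least 11 was 0.1, 0.0927, 0.108 and 0.113 in the same order, and at 10 mg/kg 2 of these genes, Scd among them, had an SD as low as that of Scd. Whether the narrowing reflects the array or the livers was not tested.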
